A study of Ciona robusta with 3 samples.

Results

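The genes described here were 7 of the 17822 *Ciona robusta* gene models counted in each library, chosen by name for what their products do in muscle. They were Actg2 (KY2019:KY.Chr1.2388, an actin) and Tpm1 (KY2019:KY.Chr3.1094, a tropomyosin) of the thin filament, Ttn (KY2019:KY.Chr9.1127, a titin) of the sarcomere scaffold, Myh7b (KY2019:KY.Chr11.44, a myosin heavy chain) of the thick filament, and Casq2 (KY2019:KY.Chr4.1004, a calsequestrin), Unc45a (KY2019:KY.Chr8.1389, a myosin chaperone) and Ckm (KY2019:KY.Chr7.313, a creatine kinase), which support contraction. The symbols are the ones the study paired with the gene models by similarity to vertebrate proteins. Coordinates and sequences of the gene models were not used here.

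In striated muscle, thick filaments of myosin pull on thin filaments of actin, tropomyosin lies along the actin and gates the sites that myosin binds, and titin is a giant elastic protein that holds the thick filament in place within the sarcomere. From work in vertebrates and nematodes, calsequestrin buffers the calcium that is released for each contraction, UNC-45 proteins fold the motor domain of myosin, and creatine kinase of the muscle type regenerates ATP from phosphocreatine. In *Ciona*, the B7.5 founder cells give rise to anterior tail muscles (ATMs), which differentiate in the tail, and to trunk ventral cells (TVCs), the multipotent cardiopharyngeal progenitors that migrate into the trunk and later form the heart and the pharyngeal muscles.

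Cells of the B7.5 lineage were sorted from wild-type embryos that carried a *Mesp*-driven GFP reporter with a pair of sample barcodes, a different pair for each of 10 time points from 5 to 14 h post-fertilization (hpf), and all time points were sequenced in 1 pooled 10x library. In 2 further libraries (repeats 1 and 2), lineage cells were collected at 12 hpf after electroporation of CRISPR/Cas9 reagents. These were against *Foxf*, *Gata4/5/6* or *Foxtun4*, or were control reagents. The paper's text names tyrosinase, a pigment gene, as the control target in imaging experiments, and names no control target for these libraries. The groups of these libraries all carried the reporter and a CRISPR reagent, the study's Cas9 is driven by the *Mesp* enhancer, and uptake of electroporated plasmids is mosaic, so unedited cells can be present in each CRISPR group. Eggs for the time series came from a pool of several animals. Nothing in the labels says whether the 2 repeats were separate fertilizations, so p-values below measure only the spread between these libraries, which may be technical.

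The libraries held 2569, 231 and 638 cell barcodes and 39762547, 5299026 and 14905325 unique molecular identifiers (UMIs) on genes. A barcode pair was assigned to 1353 of 2517 cells of the time series that passed the filter on the number of genes, to 161 of 231 cells of repeat 1 and to 463 of 638 cells of repeat 2. The CRISPR repeats shared 7 cell barcodes, of which 2 were assigned in both, and in repeat 2 these held 1.27% to 1.43% of the UMIs that they held in repeat 1. Leaving them out of repeat 2 changed no call on any of the 7 genes. Levels are UMIs of a gene per 1000000 gene UMIs (CPM) of the summed cells of a group, with exact Poisson 95% intervals that cover counting error only. The time series had no replicates, so its ratios carry a counting interval and no test, and no direction was read from sums of fewer than 20 cells.

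Cells were divided by the share of gene UMIs that 3 myosin light chain genes (Myl1-KY.Chr1.2008, Myl1-KY.Chr1.2010 and Myl1-KY.Chr1.2011) took in each cell, with cells at 1% or more called Myl1-high and the others Myl1-low. The division was checked against marker lists. At 10 hpf the 10 ATM markers summed to 37792 CPM in 215 Myl1-high cells, and the 10 TVC markers to 7708 CPM in 245 Myl1-low cells against 950 CPM in Myl1-high cells. The Myl1-low cells of 10 hpf also held ATM markers, at 12798 CPM, so they were not free of muscle RNA. At 11, 12 and 13 hpf the TVC markers summed to 13180, 14193 and 12896 CPM in Myl1-low cells and all 10 were detected, and the ATM markers there to 10258, 7684 and 10822 CPM. From 10 hpf the TVC markers were thus concentrated in the Myl1-low class and the ATM markers in the Myl1-high class, without a clean division. Before 10 hpf the classes did not match muscle and progenitors. The 3 founder markers stood at 1096 CPM in Myl1-high cells at 6 hpf, 866 CPM at 7 hpf and 334 CPM at 8 hpf, so these Myl1-high cells still carried founder RNA. The Myl1-low cells of 7 and 8 hpf were 25 and 20 cells with TVC markers at only 459 and 620 CPM and markers of cells outside the lineage at 6275 and 4454 CPM, against 2931 and 3369 CPM in Myl1-high cells. The classes are therefore called by their Myl1 level. At 10 hpf the cut fell within a continuum, with 116 of 245 Myl1-low cells and 43 of 215 Myl1-high cells between 0.5% and 2%.

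The 2 thin filament genes climbed through the series in Myl1-high cells. Actg2 is 1 of several actin gene models with this symbol, and whether reads were split between them was not tested. It stood at 27178 CPM at 6 hpf (23 cells), 47039 CPM at 7 hpf (220 cells) and 59969 CPM at 8 hpf (126 cells). Its level was 72321 CPM at 9 hpf (52 cells), 80240 CPM at 10 hpf (215 cells) and 100036 CPM at 11 hpf (27 cells). Each time point lay above the one before it beyond the counting intervals. Tpm1 followed the same order, with 10771, 15366, 20475, 25823, 28610 and 33746 CPM from 6 to 11 hpf. From 7 to 11 hpf the ratio was 2.13 (95% interval 2.11 to 2.15) for Actg2 and 2.20 for Tpm1. The 14 and 7 Myl1-high cells of 12 and 13 hpf held 103993 and 85462 CPM of Actg2 and 37759 and 37343 CPM of Tpm1. The Myl1-high class itself changed over these times. Cells with Myl1 at 1% to 2% were 17 of 23 at 6 hpf, 63 of 220 at 7 hpf and 0 of 27 at 11 hpf. Myl1 took 1.73% of the summed UMIs at 6 hpf and 5.90% at 11 hpf. Per Myl1 UMI, Actg2 was at 1.57, 2.11 and 1.70 at 6, 9 and 11 hpf. Tpm1 was at 0.622, 0.753 and 0.572. The part of this shift in the changes of the 7 genes was not tested.

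Ckm climbed more than the thin filament genes. Ckm, whose product buffers ATP in contracting muscle, rose from 343 CPM at 6 hpf and 918 CPM at 7 hpf through 1117 and 1475 CPM at 8 and 9 hpf to 2563 CPM at 10 hpf and 2704 CPM at 11 hpf. Its ratio of 11 to 7 hpf was 2.94 (lower bound 2.78), and that of 10 to 8 hpf was 2.29 (2.20 to 2.40). Of the 7 genes it alone was over 2-fold higher at 10 than at 8 hpf, a change that 5.35% of 5013 genes compared also showed. The median log2 ratio of 10 to 8 hpf was -0.66 over all genes compared and 0.42 for the 7 genes, so small ratios here lay above the typical gene.

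Ttn had an early step and a dip. Its level was 2831 CPM at 6 hpf, 7592 CPM at 7 hpf, 6089 CPM at 8 hpf, 5150 CPM at 9 hpf, 6961 CPM at 10 hpf and 8129 CPM at 11 hpf. It was 2.68 times as high at 7 as at 6 hpf (2.55 to 2.82) and then 0.802 times at 8 against 7 hpf (0.786 to 0.819), while Actg2 and Tpm1 were higher at 8 than at 7 hpf. Over the whole span from 7 to 11 hpf Ttn ended at 1.07 times its start (1.04 to 1.10).

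Casq2 and Unc45a changed less than the thin filament genes, and Myh7b stepped up early. Casq2 went from 6614 CPM at 6 hpf to 10947 CPM at 10 hpf and 9704 CPM at 11 hpf, and Unc45a from 1893 CPM at 6 hpf to 3790 and 3631 CPM at 10 and 11 hpf. The 2 last values of Unc45a did not separate (ratio 0.958, 0.916 to 1.0). Myh7b was counted rarely, at 26.7 CPM at 6 hpf and between 67.3 and 128 CPM from 7 to 11 hpf. It was 3.46 times as high at 7 as at 6 hpf (2.07 to 6.26), and its ratio of 11 to 7 hpf was 1.16 (0.881 to 1.51), an interval that includes no difference. A UMI of Myh7b was found in 74.0% of Myl1-high cells at 10 hpf (median 19109 UMIs per cell) and in 1.83% of the 218 Myl1-low cells with no barcode UMI (median 11032), which stand for cells outside the lineage. With each cell thinned to 5000 UMIs the shares were 35.7% of 210 cells and 1.05% of 191 cells.

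**Figure D1:**
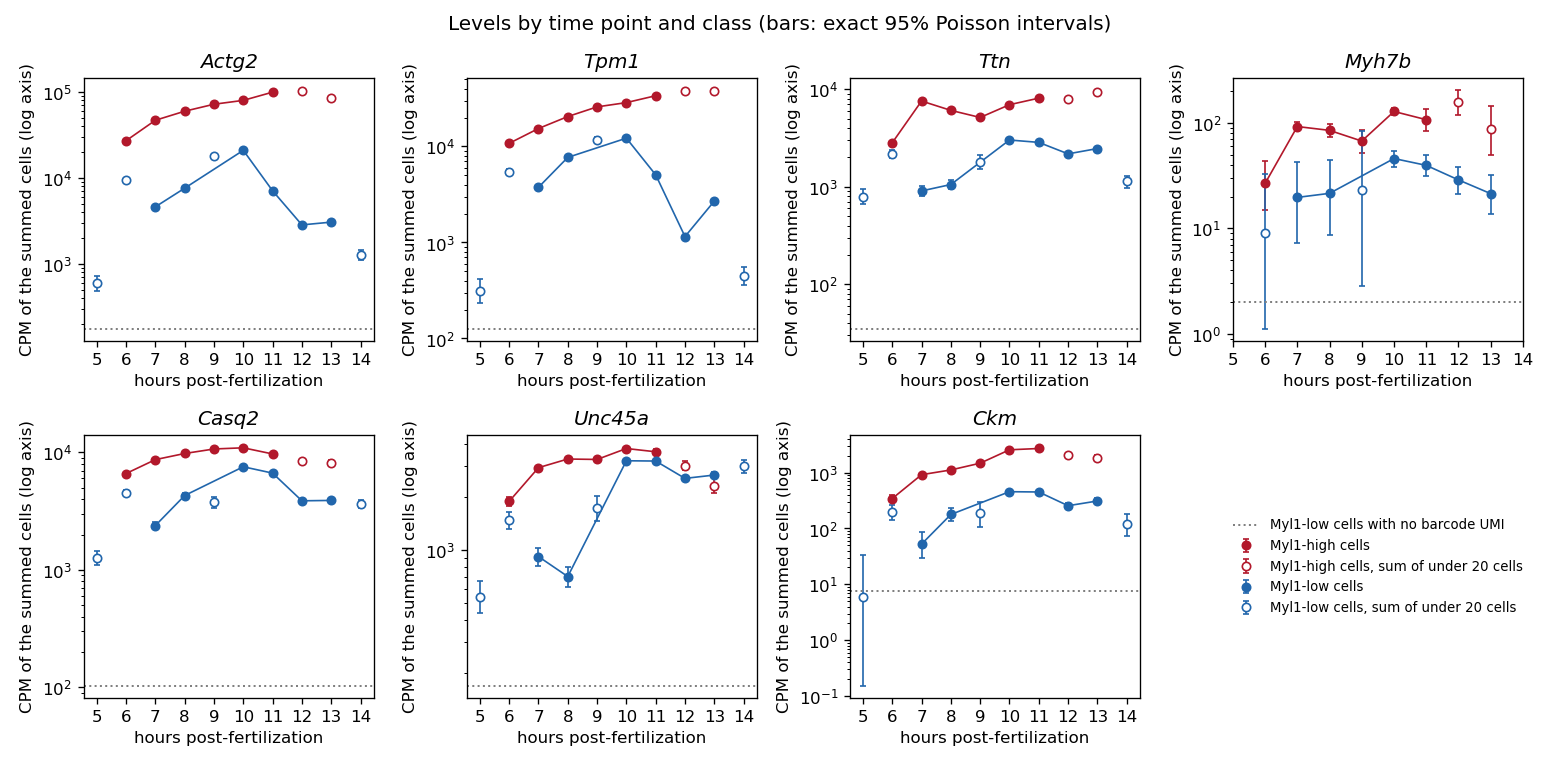
Level of each gene (CPM of the summed cells, log axis) against hours post-fertilization in Myl1-high (red) and Myl1-low (blue) cells of the time series, with exact Poisson 95% intervals; open points are sums of fewer than 20 cells and the dotted line is the level in Myl1-low cells with no barcode UMI. Actg2 and Tpm1 climbed in Myl1-high cells and fell in Myl1-low cells after 10 hpf, while Unc45a in both classes lay close together from 10 to 12 hpf.

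In Myl1-low cells each of the 7 genes was far above the level of cells outside the lineage. At 10 hpf Actg2 stood at 20979 CPM, Tpm1 at 12194 CPM and Ttn at 3023 CPM, while Myl1-low cells with no barcode UMI held 173, 125 and 34.6 CPM. Casq2 stood at 7550 CPM, Unc45a at 3227 CPM and Ckm at 455 CPM, against 103, 167.5 and 7.74 CPM in those cells. The class that held the TVC markers thus also held RNA of structural muscle genes, and Myh7b, of which the fewest UMIs were counted, was at 46.0 CPM against 2.02 CPM.

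The thin filament genes then fell in Myl1-low cells, by more than any other of the 7 genes. Actg2 went to 7078 CPM at 11 hpf (137 cells), 2833 CPM at 12 hpf (112 cells) and 3052 CPM at 13 hpf (89 cells), so that the level at 12 hpf was 0.135 of that at 10 hpf (0.131 to 0.139). Tpm1 went to 5062, 1152 and 2696 CPM at the same times, and its ratio of 12 to 10 hpf was 0.0945 (0.0901 to 0.0990). The rise of Tpm1 from 12 to 13 hpf, 2.34 times in the sums (2.21 to 2.48), was carried by a part of the cells, since the median cell held 550 CPM at both times and the upper quartile moved from 1139 to 1522 CPM.

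The remaining 5 genes stood at 0.513 to 0.793 of their 10 hpf level at 12 hpf. Unc45a had a ratio of 0.793 (0.765 to 0.823) and Ttn of 0.721 (0.693 to 0.75). Myh7b followed at 0.627 (0.437 to 0.883), Ckm at 0.561 (0.501 to 0.628) and Casq2 at 0.513 (0.499 to 0.528). The drop of Unc45a, Ttn and Ckm came between 11 and 12 hpf, since from 10 to 11 hpf Unc45a had a ratio of 0.996 (0.965 to 1.03), Ckm of 0.989 (0.906 to 1.08) and Ttn of 0.946 (0.914 to 0.978). Actg2 and Tpm1 had by then already gone to 0.337 (0.331 to 0.344) and 0.415 (0.406 to 0.425) of their 10 hpf levels.

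With over 2-fold as the line, 2 of the 7 genes were lower at 12 than at 10 hpf, as were 8.54% of 5530 genes compared. The Myl1-low class itself changed over this step. At 10 hpf, 116 of its 245 cells held Myl1 at 0.5% to 1% of their UMIs, and at 12 hpf none of 112 did, the ATM marker sum in the class was 12798 CPM at 10 hpf and 7684 CPM at 12 hpf, and the part of this shift in the ratios was not tested. The 42 cells under 0.25% Myl1 at 10 hpf held 4131 CPM of Actg2 and 3759 CPM of Tpm1, nearer to the 12 hpf levels than the whole class at 10 hpf was. Whether those cells belonged to the lineage was not tested. The fall of the thin filament genes kept its direction over 6 other ways of choosing or summing the cells. Among these, only a cut at 0.5% left out the Myl1-low cells near the cut. The log2 ratio of 12 to 10 hpf lay between -3.16 and -2.36 for Actg2 and between -3.63 and -2.87 for Tpm1. That of Myh7b moved from -0.67 to 0.010 with the cut at 0.5%, so its fall rested on where the classes were divided.

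At earlier times the Myl1-low sums were set by few cells. At 7 hpf Actg2 summed to 4604 CPM over 25 cells with a median of 291 CPM, and Tpm1 to 3752 CPM with a median of 156 CPM. At 8 hpf the sums were 7594 and 7689 CPM over 20 cells with medians of 302 and 215 CPM. Most of these cells were near the level of cells outside the lineage, and they also held the outside markers given above.

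At 10 hpf, when both classes were large, all 7 genes were higher in Myl1-high cells by unequal amounts. The ratio of Myl1-high to Myl1-low cells was 5.63 (5.32 to 5.96) for Ckm, 3.82 (3.79 to 3.86) for Actg2, 2.80 (2.32 to 3.39) for Myh7b, 2.35 (2.32 to 2.37) for Tpm1 and 2.30 (2.25 to 2.36) for Ttn. Casq2 at 1.45 (1.43 to 1.47) and Unc45a at 1.17 (1.15 to 1.2) differed least. Of the 7 genes, 5 were over 2-fold higher in Myl1-high cells, and 5.59% of 5819 genes compared were. The median log2 ratio was 1.23 for the 7 genes and -1.01 over all genes compared, so the genes that differed least also lay above the typical gene. The classes were made with other muscle genes, and the values are given as a description. At 11 hpf the ratio was 14 for Actg2 and 6.67 (6.51 to 6.83) for Tpm1, and it was 1.13 (1.08 to 1.19) for Unc45a.

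The members were then followed across the continuum of Myl1 at 10 hpf, in 6 bands of the Myl1 share that held 42, 87, 116, 43, 66 and 106 cells. Actg2 went up through all of them, from 4131 CPM under 0.25% Myl1 through 20067, 27728, 46481 and 78046 CPM to 89507 CPM at 4% and over. Tpm1 went up through the first 5 bands (3759, 10911, 16140, 24191 and 29772 CPM) and was at 29198 CPM in the last. Unc45a showed another form. It was at 1118 CPM in the lowest band and then at 3609, 3731, 3942, 3819 and 3740 CPM, with no trend over the 5 upper bands, in which Actg2 went from 20067 to 89507 CPM.

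In these bands Casq2 resembled Unc45a more than the filament genes. It was at 2489 CPM in the lowest band, 8052 CPM in the second and between 9044 and 11570 CPM in the others. Ckm stepped up between the classes, from 522 and 541 CPM in the 2 bands next above the lowest to 1396, 2211 and 3003 CPM in those above. Ttn went from 727 and 3193 CPM to 7521 CPM and Myh7b from 11.3 and 37.8 CPM to 163 CPM. The lowest band stood apart from its neighbour in all 7 genes. Its 42 cells had a median of 10000 UMIs, with ATM markers at 3889 CPM and TVC markers at 3573 CPM against 9240 CPM in the second band, and whether these cells belonged to the lineage was not tested.

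**Figure D2:**
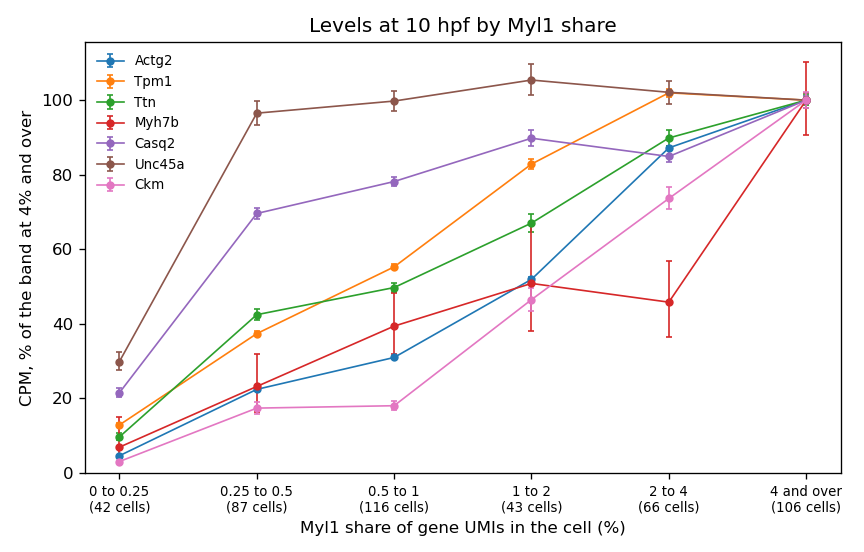
Level of each gene at 10 hpf in 6 bands of the Myl1 share of a cell's gene UMIs, as a percentage of its level in the highest band (CPM of the summed cells; cells per band under the axis). Unc45a and Casq2 changed least from the second band on, whereas Actg2, Ttn and Ckm kept climbing.

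Genes with patterns most like each member were found by Pearson correlation of log2(CPM + 10) over the 12 sums of at least 20 cells, among 7023 genes. The sums shared 1 library and their time points, so r describes them and carries no p. Actg2 was most like its neighbouring actin copy Actg2-KY.Chr1.2387 (r = 0.997), with which it may share reads, then Cav1-KY.Chr5.1030 (0.993), a caveolin of the plasma membrane, and Pdcl3-KY.Chr14.135 (0.987), a phosducin-like protein. Tpm1 was most like Atp2a3-KY.Chr11.572 (0.993), a calcium pump of the sarcoplasmic reticulum, then Myl7-KY.Chr8.903 (0.982) and Actg2-KY.Chr1.2387 (0.975). Ttn and Casq2 both had the heavy chain Myh2-KY.Chr2.1050 among their nearest genes (0.966 for each). Ttn was also close to the light chains Myl7-KY.Chr8.906 (0.961) and Myl1-KY.Chr1.2011 (0.960), the latter used for the cut, and Casq2 to the actin Actg2-KY.Chr7.868 (0.976) and to Tnc-KY.Chr9.861 (0.972).

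The 3 other members had nearest genes of mixed kinds. Ckm was most like the calcium pump Atp2a3-KY.Chr11.1017 (0.985), the troponin Tnnc2-KY.Chr12.40 (0.984) and Myh2-KY.Chr2.1050 (0.981). Myh7b was most like Plcd1-KY.Chr9.253 (0.968), a phospholipase C, Myh2-KY.Chr3.13 (0.961) and the unnamed gene model KY.Chr7.847 (0.942). Unc45a was most like Ndrg1-KY.Chr11.351 (0.951), the actin Actg2-KY.Chr1.2113 (0.949) and Myl7-KY.Chr8.907 (0.944). Among the members themselves, Actg2 and Tpm1 were closest (0.965), and Unc45a was the farthest from both, at 0.515 from Actg2 and 0.386 from Tpm1.

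A list of 40 related genes of the same families and roles (other actins, tropomyosins, myosin heavy chains, sarcomere scaffold genes, calcium pumps and channels, and creatine kinases) was set beside the members. At 10 hpf, 33 of them had enough UMIs to compare. In Myl1-high cells 26 were over 2-fold higher, as were 5.59% of all genes compared, and 2 were over 2-fold lower. The median log2 ratio was 1.42 against -1.01 over all genes. From 10 to 12 hpf in Myl1-low cells, 14 of 33 were over 2-fold lower, as were 8.54% of all genes compared. The nebulin gene Neb-KY.Chr1.2460 (log2 ratio 1.22) alone was over 2-fold higher, and the median was -0.51 against 0.10 over all genes. Shares of all genes in the opposite directions, lower at 10 hpf and higher here, were not counted. The actins divided. Actg2-KY.Chr1.2387 (-2.83) and Actg2-KY.Chr4.230 (-3.10) fell with Actg2, whereas Actc1-KY.Chr11.686 was at 0.54, and it was also lower in Myl1-high than in Myl1-low cells at 10 hpf (-1.67). The calcium pump gene Atp2a3-KY.Chr11.572 (-3.35) had the fall nearest to that of Tpm1, and 5 Myh2 heavy chain genes fell by 1.33 to 1.55 on the log2 scale, more than Myh7b. In Myl1-high cells 12 of 33 were over 2-fold higher at 10 than at 8 hpf, as were 5.35% of all genes compared. Among them were Neb-KY.Chr1.2460 (3.24) and the calcium release channel gene Ryr3-KY.Chr11.485 (3.11), while Ttn was at 0.19.

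The CRISPR libraries asked whether transcription factors of the progenitors act on gene expression at 12 hpf. The targeted genes were read first, in Myl1-low cells, which are called progenitors here. When the cells were clustered, 213 of 266 assigned cells under the cut fell in TVC-like clusters and 3 in ATM-like clusters, and the others fell in clusters that the markers did not name. *Foxf* (Foxf1-KY.Chr3.1005) was at 540 and 440 CPM in control repeats 1 and 2 and at 66.4 and 140 CPM after Foxf CRISPR (log2 fold change -2.11, SE 0.30, adjusted p = 0.0102). *Gata4/5/6* (Gata5-KY.Chr6.625) was at 214 and 230 CPM in controls and at 88.1 and 59.0 CPM after Gata4/5/6 CRISPR (adjusted p = 0.0956), and *Foxtun4* (Foxl1-KY.Chr5.382) at 305 and 280 CPM in controls and at 110 and 64.1 CPM after Foxtun4 CRISPR (adjusted p = 0.260). Each target was lower in both libraries of its own condition, and only the fall of *Foxf* passed the test. These p-values, like those below, are from edgeR's quasi-likelihood test with Benjamini-Hochberg adjustment over 7107 genes, and calls required an adjusted p below 0.05 together with a log2 fold change beyond 0.5 in either direction. *Gata4/5/6* also fell after Foxf CRISPR, to 44.3 and 52.9 CPM (adjusted p = 0.00709).

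The thin filament genes had the largest differences of the 7 genes after Foxf CRISPR, and neither passed the test over all genes. Actg2-KY.Chr1.2388 was at 4186 and 2894 CPM in control progenitors (36 and 74 cells) and at 5934 and 6207 CPM after Foxf CRISPR (17 and 49 cells). Tpm1-KY.Chr3.1094 was at 7624 and 4390 CPM in controls and at 9519 and 10503 CPM after Foxf CRISPR. For both genes the Foxf libraries lay above both controls. The log2 fold change of Actg2 was 0.85 (SE 0.23, 95% interval 0.33 to 1.36, adjusted p = 0.172 in edgeR), and that of Tpm1 was 0.81 (SE 0.34, interval 0.044 to 1.57, adjusted p = 0.477). Per cell the medians had the same order, at 2745 and 2157 CPM of Actg2 in controls and 4626 and 5319 CPM after Foxf CRISPR, and at 3999 and 2408 CPM of Tpm1 in controls and 8331 and 7684 CPM after Foxf CRISPR.

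For the scaffold, heavy chain and support genes the interval of the change included 0. Ttn-KY.Chr9.1127 was at 3019 and 2214 CPM in controls and at 1951 and 2822 CPM after Foxf CRISPR (log2 fold change -0.064, interval -0.67 to 0.54). Myh7b-KY.Chr11.44 was at 33.4 and 23.2 CPM in controls and at 25.8 and 45.7 CPM after Foxf CRISPR (0.52, interval -0.30 to 1.35), which rests on few UMIs. Both genes had groups that overlapped. Casq2-KY.Chr4.1004 was at 4065 and 3596 CPM in controls and at 4658 and 4067 CPM after Foxf CRISPR (0.26, interval -0.092 to 0.61). Unc45a-KY.Chr8.1389 was at 2860 and 2627 CPM in controls and at 2958 and 3256 CPM after Foxf CRISPR (0.25, interval -0.032 to 0.53). In these support genes both Foxf libraries lay just above both controls. Ckm-KY.Chr7.313 was at 718 and 531 CPM in controls and at 819 and 572 CPM after Foxf CRISPR (0.22, interval -0.47 to 0.91), with groups that overlapped.

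Of the 7 genes, 0 were called after Foxf CRISPR by edgeR, where 1.42% of 7107 genes were (0.366% higher and 1.06% lower). Actg2 and Tpm1 were at an unadjusted p under 0.05, and ranked 186 and 597 by p among the 7107 genes. DESeq2 called 1, Actg2 (adjusted p = 0.0119). With no filter on low counts edgeR called 2, Actg2 (adjusted p = 6.72e-05) and Tpm1 (adjusted p = 4.84e-05). With progenitors taken as TVC-like clusters in place of the Myl1 cut, edgeR called 1, Tpm1 (0.80, adjusted p = 0.0282). The number called over all genes also changed with the setting, from 101 in the main fit to between 59 and 412 over the 10 alternatives. In 4 of the 7 genes both Foxf libraries lay above both controls, as they did in 16.3% of all genes tested, and in 0 they lay below, as in 25.6%. The call for the thin filament genes therefore depended on the tool, the filter and how progenitors were chosen, while their direction did not: over 10 alternatives the log2 fold change of Actg2 lay between 0.31 and 0.90 and that of Tpm1 between 0.56 and 0.85. With each control or Foxf library left out in turn, the lowest values came without control repeat 2 (0.62 and 0.47, both with adjusted p = 1.0 in edgeR) and the highest without control repeat 1 (1.16 and 1.28).

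**Figure D3:**
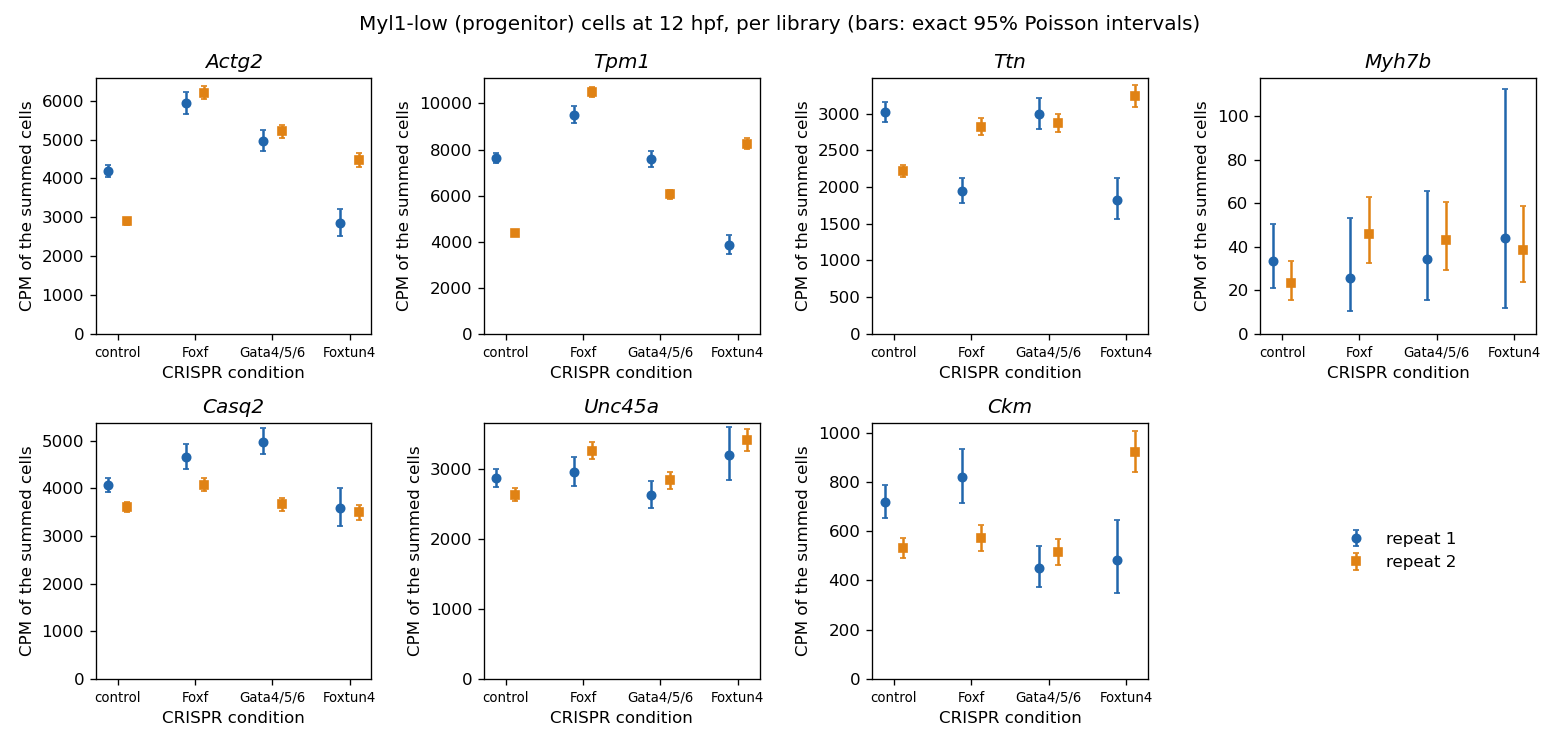
Level of each gene (CPM of the summed cells) in progenitors at 12 hpf for the 4 CRISPR conditions in repeats 1 (blue circles) and 2 (orange squares), with exact Poisson 95% intervals. For Actg2 and Tpm1 both Foxf libraries lay above both controls, and the 2 controls of Tpm1 differed by 7624 against 4390 CPM.

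Other values moved with Foxf CRISPR in the same cells. The TVC marker sum was at 13432 and 15028 CPM in control progenitors and at 7369 and 8940 CPM after Foxf CRISPR, all 10 markers being detected in each. The ATM marker sum, which holds Mybpc1, Ryr3 and a calcium pump of the related list, was at 11327 and 9441 CPM in controls and at 14893 and 13380 CPM after Foxf CRISPR. Myl1 itself was at 2077 and 1708 CPM in controls and at 3570 and 3239 CPM after Foxf CRISPR, and 3 of 36 and 4 of 74 control progenitors held Myl1 at 0.5% to 1% of their UMIs, against 4 of 17 and 10 of 49 Foxf progenitors. The part of these cells in the difference was not tested beyond a cut at 0.5%, which leaves them out and with which the log2 fold change was 0.51 for Actg2 and 0.56 for Tpm1.

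Among the related list 36 genes were tested after Foxf CRISPR in progenitors. Of these, 2 were called higher, as were 0.366% of all genes tested, and 0 were called lower, as were 1.06%. Their median log2 fold change was 0.45 against 0.02 over all genes tested. The 2 that rose were the actin Actg2-KY.Chr4.230, at 1994 and 1268 CPM in controls and 3212 and 3640 CPM after Foxf CRISPR (1.14, SE 0.22, adjusted p = 0.0397), and Cacna1c-KY.Chr4.431, a subunit of a voltage-gated calcium channel, at 57.7 and 52.0 CPM in controls and 114 and 155 CPM after Foxf CRISPR (1.40, SE 0.26, adjusted p = 0.0382). With the Myl1 cut at 2% 0 of the list were called, and with each library left out 0 to 2 were. The neighbouring actin Actg2-KY.Chr1.2387 was at 0.64 (adjusted p = 0.233).

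In muscle the thin filament genes differed little after Foxf CRISPR. Actg2 was at 47784 and 44447 CPM in control Myl1-high cells (37 and 95 cells) and at 42654 and 46334 CPM after Foxf CRISPR (10 and 51 cells), with a log2 fold change of -0.078 (interval -0.34 to 0.18). Tpm1 was at 21635 and 20925 CPM in controls and at 18831 and 19001 CPM after Foxf CRISPR (-0.20, interval -0.45 to 0.058). Myh7b was at 166 and 148 CPM in controls and at 89.9 and 135 CPM after Foxf CRISPR. Ckm was at 4011 and 4282 CPM in controls and at 4569 and 4498 CPM after Foxf CRISPR. Both Foxf libraries lay below both controls in 2 of the 7 genes, Tpm1 and Myh7b (17.9% of all genes), and above in 1, Ckm (15.9%), and the groups of the other genes overlapped. Of the 7 genes 0 were called, as were 0% of 6305 genes by edgeR, and 0 were at an unadjusted p under 0.05. The share of all genes under that last line was not counted.

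The difference between the Foxf effect in progenitors and in muscle was tested directly as an interaction. It was 0.92 on the log2 scale for Actg2 (SE 0.34, adjusted p = 0.554 in edgeR), 1.0 for Tpm1 (SE 0.44, adjusted p = 0.692) and 0.98 for Myh7b (SE 0.49, adjusted p = 0.730). It was 0.33 for Casq2, 0.23 for Unc45a, 0.11 for Ckm and -0.07 for Ttn. Of the 7 genes 0 were called, where 0.0514% of 7786 genes were (0.0128% with the higher effect in progenitors and 0.0385% with the higher effect in muscle). Actg2 and Tpm1 were at an unadjusted p under 0.05, and the share of all genes under that line was not counted. The effects in progenitors were thus not shown to differ from those in muscle over all genes tested.

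**Figure D4:**
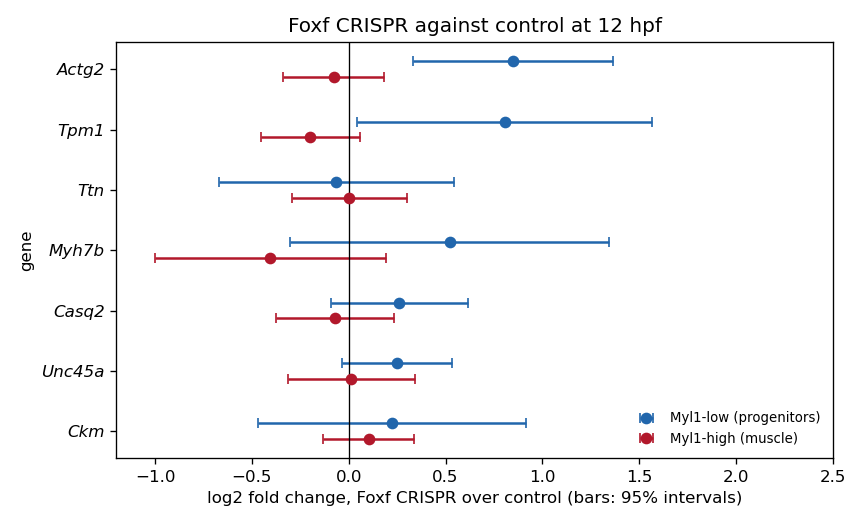
Log2 fold change of each gene after Foxf CRISPR over control at 12 hpf in progenitors (blue) and in muscle (red), with 95% intervals from the edgeR fit of 2 libraries per condition. The intervals of Actg2 (0.33 to 1.36) and Tpm1 (0.044 to 1.57) in progenitors lay above 0 before adjustment, and the intervals in muscle all included 0.

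After Gata4/5/6 CRISPR, 0 of the 7 genes were called in progenitors by edgeR (background 0.0422% of 7107 genes), and 1 was at an unadjusted p under 0.05. This was Actg2, at 4971 and 5211 CPM (14 and 38 cells) against 4186 and 2894 CPM in controls, with a log2 fold change of 0.54 (SE 0.23, adjusted p = 1.0 in edgeR). Actg2 ranked 278 by p among the 7107 genes. Both Gata4/5/6 libraries lay above both controls in 2 of the 7 genes (16.7% of all genes) and below in 1 (20.4%). The latter was Ckm, at 452 and 514 CPM against 718 and 531 CPM. Tpm1 was at 7576 and 6051 CPM and Ttn at 3003 and 2877 CPM, both within the range of their controls. Of the related list 0 of 36 were called, with a median log2 fold change of 0.38 against 0.01 over all genes. Since all 3 contrasts share the control libraries, likeness between them was not read as support for any.

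After Foxtun4 CRISPR, 0 of the 7 genes were called in progenitors by edgeR, where 0% of 7107 genes were, and 1 was at an unadjusted p under 0.05. This was Unc45a, at 3198 and 3401 CPM (6 and 32 cells) against 2860 and 2627 CPM in controls, with a log2 fold change of 0.31 (SE 0.13, adjusted p = 1.0 in edgeR). Unc45a ranked 156 by p among the 7107 genes. Both Foxtun4 libraries lay above both controls in 2 of the 7 genes, Unc45a and Myh7b (13% of all genes), and below in 1, Casq2 (22.9%). The 2 libraries of this condition disagreed for the thin filament genes. Actg2 was at 2847 CPM in repeat 1 and 4472 CPM in repeat 2, Tpm1 at 3855 and 8253 CPM, and Ckm at 482 and 921 CPM, and both controls lay within these ranges. The median cell of repeat 2 held 2580 CPM of Actg2 and 2407 CPM of Tpm1, close to the 2157 and 2408 CPM of the controls of that repeat, so the higher sums came from part of its 32 cells. In muscle 0 of the 7 genes were called after Gata4/5/6 or Foxtun4 CRISPR, where 0% of 6305 genes were in either contrast, and 1 was at an unadjusted p under 0.05, Ttn after Foxtun4 CRISPR, at 14920 and 12144 CPM against 11577 and 10774 CPM in controls. How many of all genes were under that line in muscle was not counted.

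Levels in the CRISPR controls are set beside those of the time series at 12 hpf, with no test, since the libraries were made separately. Control progenitors held 7624 and 4390 CPM of Tpm1 where Myl1-low cells at 12 hpf of the time series held 1152 CPM, and 718 and 531 CPM of Ckm where those held 255 CPM. Actg2 was at 4186 and 2894 CPM beside 2833 CPM, and Ttn at 3019 and 2214 CPM beside 2179 CPM. Unc45a was at 2860 and 2627 CPM beside 2561 CPM, Casq2 at 4065 and 3596 CPM beside 3874 CPM, and Myh7b at 33.4 and 23.2 CPM beside 28.8 CPM. The order of the Myl1-high to Myl1-low ratios was similar to that at 10 hpf in both control libraries at its lower end: Unc45a (1.5 and 1.6) and Casq2 (1.6 and 1.6) differed least. Actg2 (11 and 15) differed most there, whereas Ckm did at 10 hpf.

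Myh7b had a further pattern, in cells to which no barcode pair was assigned. Among Myl1-high cells of the time series it was at 668 CPM in 47 unassigned cells and at 101 CPM in 684 assigned cells, a ratio of 6.61 (6.06 to 7.19). In repeat 1 it was at 826 CPM in 13 unassigned cells and 149 CPM in 88 assigned cells, and in repeat 2 at 1661 CPM in 7 and 162 CPM in 270. The sums of unassigned cells were thus above those of assigned cells in all 3 libraries, and the ratios of the other 6 genes were smaller, between 0.782 and 1.76. Casq2 (1.29, 1.34 and 1.76) was also above in all 3 libraries. Ttn (1.07, 1.03 and 1.06) was above only in the sums, and its interval in repeat 1 (0.992 to 1.07) includes no difference. The mean over cells of Ttn was lower in unassigned than in assigned cells, with ratios of 0.990 in the time series and 0.584 and 0.803 in repeats 1 and 2.

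A few cells carried the difference of Myh7b. Cells with 1000 CPM or more of Myh7b were 13 of 47 unassigned against 4 of 684 assigned cells in the time series (27.7%, exact 95% interval 15.6% to 42.6%, against 0.585%, 0.160% to 1.49%), 2 of 13 against 0 of 88 in repeat 1 and 2 of 7 against 1 of 270 in repeat 2. A count of 0 of 88 allows a share of up to 4.11% by the exact interval. The unassigned cells with such levels held 0 to 11 barcode UMIs, and their kind is not named here. The median cell did not show the pattern in repeat 1, where it was at 31.3 CPM in unassigned cells (median 9237 UMIs) and 121 CPM in assigned cells (median 31219 UMIs), while it was at 160 against 65.4 CPM in the time series and 447 against 113 CPM in repeat 2. These groups were formed by barcode recovery and not by the study, and no test was made.

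**Figure D5:**
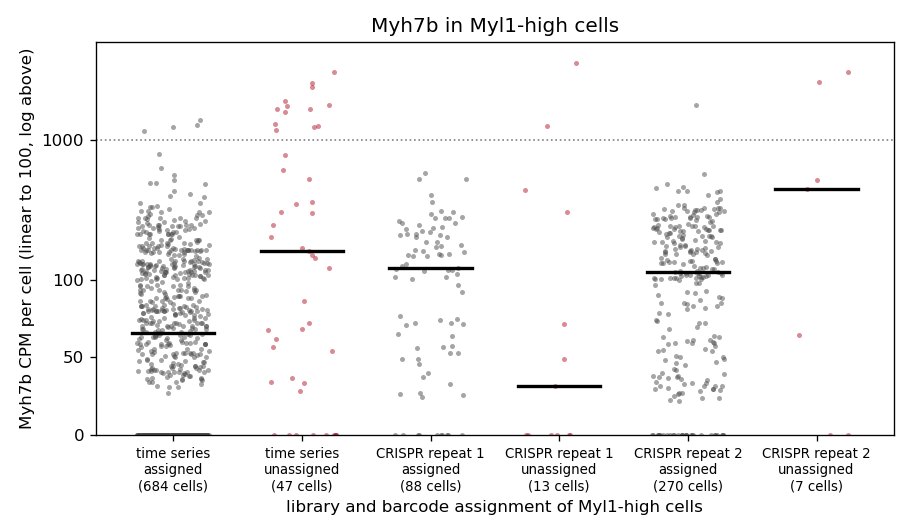
Myh7b (CPM per cell, linear to 100 and log above) in Myl1-high cells of each library, by whether a barcode pair was assigned (grey) or not (red); black lines are medians and the dotted line is 1000 CPM. Cells above the dotted line made up 13 of 47 unassigned and 4 of 684 assigned cells of the time series.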

How the data were processed

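The authors aligned the reads with Cell Ranger 3.0.1 (per the submitters' processing notes) to KY2019 gene models with 21 artificial sample barcode genes, and deposited UMI counts per gene and cell for 3 10x 3' libraries; the deposited counts were not normalized. In the time series, cells between the 1st and 99th percentile of genes detected were kept. Cells went to a condition when each of its 2 barcodes was seen (1 UMI or more) and together they made up 75% or more of a cell's UMIs from mapped barcodes. The pairs per condition were read from the colour keys of figures in the study's supplement. The pair keyed FoxG there was taken as Foxtun4 by elimination. No doublet caller was run, and cells with mixed pairs stayed unassigned. Gene symbols came from the study's tables.

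Counts were summed per library, condition and class and divided by the sum of gene UMIs (CPM). Intervals were exact Poisson, conditional binomial and Clopper-Pearson at 95%, and shares of cells were also given after thinning to 5000 UMIs. CRISPR contrasts used edgeR 4.0.16 (R 4.3.3; TMM, filterByExpr) on 8 sums of at least 5 cells per class, with all 4 conditions in 1 fit. Python 3.11.15, numpy 2.4.6, pandas 2.3.3, scipy 1.17.1, scanpy 1.11.5 and DESeq2 1.42.0 were used besides, and the fits were tested on simulated data. The 7 genes are always named; others were named by rule (3 nearest genes per member, related genes called after Foxf CRISPR, the targets), and further related genes were chosen after their values were seen. The members and lists were chosen with earlier results of these data known. The study's own differential expression tables were not used.

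The alternatives were DESeq2, its size factors, no filter on low counts, Myl1 cuts at 0.5% and 2%, TVC-like Leiden clusters, a pair share of 95%, at least 10 pair UMIs, a library block, each sum left out, and, added after seeing the data, the shared cell barcodes left out and further settings of the interaction.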

Additional observations from a re-analysis of the deposited data

How the results depend on the processing

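The number of the 7 genes called after Foxf CRISPR in progenitors, 0, became 1 with DESeq2, 2 with no low-count filter and 1 with TVC-like clusters, and stayed at 0 with each sum left out. The number over 2-fold lower at 12 than at 10 hpf in Myl1-low cells, 2, became 4 with the Myl1 cut at 2%. Over all genes, the Foxf contrast in progenitors called 101, and 59 to 412 under the alternatives; without control replicate 1 it called 23 and without control replicate 2 it called 11 (range with each sum left out 11 to 133). The 2 related genes called became 0 to 8, and 0 to 2 with each sum left out. The Gata4/5/6 contrast called 3 (0 to 233, highest with no low-count filter, and 0 to 4 with each sum left out), and the Foxtun4 contrast 0 (0 to 84, and 0 to 2). In muscle, 0 genes became at most 1 after Foxf CRISPR and 26 after Gata4/5/6 CRISPR with a sum left out, and the interaction called 4 (0 to 73).

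The sums of all conditions in a repeat came from the same library. These same-numbered sums did not deviate together (6 correlations from -0.40 to 0.20 in progenitors and from -0.12 to 0.19 in muscle), so the main fit did not take them as pairs. With the library as replicate block, 66 genes in place of 101 were called in the Foxf contrast, with 0 members and 0 related genes among them; it changed no other call on a member.

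Some directions turned. After Foxf CRISPR in progenitors, Ckm was at -0.39 with the cut at 0.5% and Myh7b at -0.066 with the cut at 2%. With each sum left out in turn, Ttn ranged from -0.36 to 0.19, Myh7b from -0.019 to 0.78 and Ckm from -0.081 to 0.48 there, and Actg2 in muscle from -0.22 to 0.046. In the interaction, Ckm was at -0.19 with the cut at 0.5%, and with each sum left out Ttn ranged from -0.40 to 0.17, Unc45a from -0.053 to 0.61 and Ckm from -0.17 to 0.34. The log2 ratio of Myh7b from 10 to 12 hpf was 0.010 with the cut at 0.5%. Of 294 log2 fold changes of members in progenitors under the alternatives, 253 kept direction and call, 4 became calls and 37 reversed. The cause was not tested. Depth limits Myh7b most, and the Foxtun4 progenitors of repeat 1 were 6 cells.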
